A study of Mus musculus with 5 samples.

Results

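The genes described here are the keratins, the cornified envelope proteins and other genes of the skin barrier that were listed in RNA sequencing tables of forelimb muscle tissue from mouse embryos at E15.5 (E for embryonic day), late in gestation. They were chosen by name: each listed gene symbol that began with the stem of a keratin, late cornified envelope, small proline-rich, kallikrein, stefin, clade B serpin, desmoglein, desmocollin, plakophilin, lipoxygenase, transglutaminase, fatty acid elongase or S100A family, or that matched a single barrier gene such as Lor, Ivl, Dsp or Grhl3. The rule took 114 of the 4743 genes listed. The groups were 3 Noggin-deficient and 2 wild type samples, all on the C57BL/6 strain. Noggin is a secreted antagonist: it captures bone morphogenetic proteins (BMPs) outside the cell and so limits BMP signalling. The labels give neither the allele that removes Noggin, nor how many embryos or litters a sample holds. The p-values therefore measure only how far these samples spread, and that spread may be technical.

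The epidermis is a layered epithelium. Its basal cells divide and make keratins 5 and 14, the spinous cells above them switch to keratins 1 and 10 and many desmosomes, and the granular cells load the cornified envelope, a shell of cross-linked proteins such as loricrin and involucrin coated with lipids. In the mouse embryo the layers form during late gestation under the periderm, a transient outer cell sheet, and the barrier closes shortly before birth. Few of these genes are known from skeletal muscle, the only tissue the labels name. In bulk tissue, fewer epidermal cells and less RNA of a gene per cell cannot be told apart.

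The listed genes had been selected. The tables gave a normalized value in an unnamed unit, with an unknown number of reads behind it, for genes of which nearly every one differed between the same samples: of 3913 tested, 98.0% were called at an adjusted p under 0.05 by limma's moderated test (limma-trend, Benjamini-Hochberg adjustment over all genes tested). A call therefore says little about a gene, and sizes are given beside those of all listed genes. Nog stood at 0.49, 0.42 and 0.42 in the Noggin-deficient samples, against 2 and 1.99 in wild type. Of 20 skeletal muscle markers 17 had values, 15 lower and 2 higher in the Noggin-deficient samples. Of all tested genes, 60.1% were called lower and 37.9% higher. The markers had a median log2 change (Noggin-deficient minus wild type) of -0.50, against -0.28 for all tested genes. With the libraries scaled by the median of ratios, 13 were called lower and 2 higher. Acta1 measured 1611, 1629 and 1580 in the Noggin-deficient samples, against 2335 and 2357 in wild type. Ckm had 159, 167 and 158 against 342 and 339, and Mybpc1 94.0, 95.7 and 93.0 against 180.5 and 182.4. The summed level of these muscle markers ranged from 4801 to 5039 in the Noggin-deficient and from 6907 to 7036 in the wild type samples.

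Most skin barrier genes were lower in the Noggin-deficient samples, and the outer layers of the epidermis were lower by more than the basal layer. Their summed value was 2038, 2080 and 2014 in the Noggin-deficient and 4836 and 4854 in the wild type samples, 2.37 times as much in wild type. Of 99 members tested 87 fell, 11 rose and 1, Tchh, did not pass, where 60.1% of all tested genes fell and 37.9% rose. A fall of over 2-fold was called for 59 members, or 59.6%, against 7.16% of all tested genes, and a rise of over 2-fold for 5 members, against 3.73%. The median log2 change of the tested members was -1.26, and that of all tested genes -0.28. When the libraries were scaled by the median of ratios, 83 members were called lower and 11 higher, whereas the split of all tested genes became 32.5% lower and 38.0% higher. Tchh, Dsg2, Alox12, Krt16 and Klk13 were the 5 tested members without a call under that scaling. Another 15 members were under the minimum value for testing (0.5 in at least 2 libraries), and 17 of the tested members had passed it through libraries of 1 genotype only (10 wild type, 7 Noggin-deficient), so that these had to differ. With no minimum, 94 of the 114 members were called lower and 18 higher. Of all 4743 listed genes 2611 were then called lower and 1911 higher. Without any test, every Noggin-deficient library was below both wild type libraries for 94 of the 114 members (57.1% of all listed genes) and above both for 19 (41.2% of all listed genes), and the genotypes overlapped for Tchh alone. Counted in either direction, 98.2% of all listed genes showed no overlap.

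**Figure D1:**
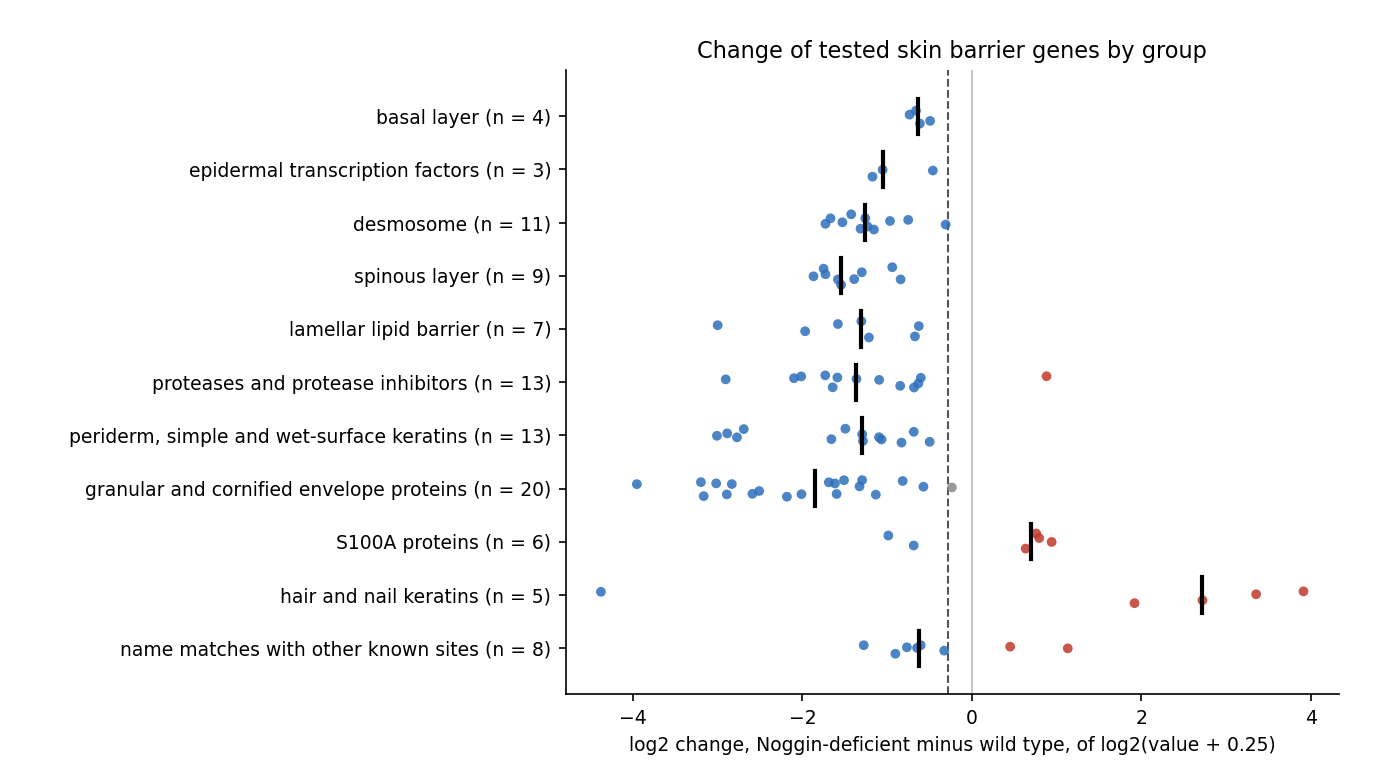
Log2 change (Noggin-deficient minus wild type, on log2(value + 0.25)) of the 99 tested skin barrier genes by group, each point 1 gene, with blue for called falls, red for called rises and grey for Tchh, which was not called. Thick black lines are group medians and the dashed line is the median of all tested genes, -0.28. The medians of the falling epidermal groups run from -0.64 in the basal layer to -1.85 among the granular and cornified envelope proteins. The genes known from other sites have a median of -0.63 and the S100A proteins one of 0.70. Hair and nail keratins lie mostly to the right of 0.

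The basal layer changed least among the epidermal groups. Its 4 members, all of which fell, had a median log2 change of -0.64. Krt5, the type II keratin of basal cells, measured 214.1, 224.9 and 212.6 in the Noggin-deficient samples, against 333.9 and 330.7 in wild type (log2 change -0.61 with SE 0.034, limma adjusted p = 2.9e-06). Krt14, its type I partner, had 129.8, 135.2 and 130.4 against 182.9 and 188.1 (log2 change -0.49 with SE 0.031, limma adjusted p = 5.3e-06). The Noggin-deficient libraries were all below the wild type ones for both partners, at about the same distance. Krt15, another type I keratin of basal cells, averaged 219.7 ± 3.87 (SD, n = 2) in wild type and 139.0 ± 4.62 (SD, n = 3) in Noggin-deficient samples, and Trp63, the gene of the transcription factor p63 that basal cells depend on, 8.0 ± 0.170 (SD, n = 2) in wild type and 4.71 ± 0.308 (SD, n = 3) in Noggin-deficient samples. None of these 4 genes passed a test against a 1.5-fold change (limma adjusted p from 0.11 to 1), and scaling by the median of ratios brought Krt5 to -0.34 and Krt14 to -0.22.

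Spinous genes were lower by more. The 9 tested members of that group fell, 7 of them over 2-fold, with a median change (log2) of -1.54. Krt1, the type II keratin that replaces keratin 5 above the basal layer, measured 224.3, 230.6 and 220.9 in the Noggin-deficient samples, against 557.1 and 551.8 in wild type (log2 change -1.30 with SE 0.031, limma adjusted p = 6.9e-08). Its type I partner Krt10 had 285.2, 289.7 and 285.0 against 857.8 and 858.3 (log2 change -1.58 with SE 0.029, limma adjusted p = 2.1e-08). The wild type libraries thus held 2.46 times as much of Krt1 and 2.99 times as much of Krt10, where they held 1.53 times as much of Krt5 and 1.41 times as much of Krt14. Krt77, a type II keratin also made above the basal layer, changed by -1.54. Krtdap, of a small secreted protein of differentiating keratinocytes, had the smaller change of -0.94, and Lypd3, of a surface protein of the same cells, one of -0.84. Among the serpins of this group, Serpinb7 averaged 10.1 ± 0.148 (SD, n = 2) in wild type and 2.58 ± 0.0361 (SD, n = 3) in Noggin-deficient samples and Serpinb2 4.82 ± 0.226 (SD, n = 2) in wild type and 1.27 ± 0.243 (SD, n = 3) in Noggin-deficient samples. Serpinb5 changed by -1.73 and Ly6d by -1.39. Tgm5, a transglutaminase, was too low to test, with values up to 0.03 in the Noggin-deficient and up to 0.09 in the wild type samples.

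Desmosomes are the junctions that hold keratinocytes together, built from the cadherins of the Dsg and Dsc families, the plakophilins and desmoplakin. All 11 listed members fell, 8 of them over 2-fold, with a median change (log2) of -1.26. Dsg1c, which is among the 8, reached the minimum value only in wild type libraries and so had to differ. Dsp, of desmoplakin, which ties keratin filaments to the junction, stood at 31.6, 31.6 and 31.0 in the Noggin-deficient samples, against 85.1 and 84.2 in wild type (log2 change -1.42 with SE 0.026, limma adjusted p = 2.1e-08). Pkp1, a plakophilin of stratified epithelia, had 22.6, 23.0 and 23.3 against 55.1 and 53.4. Both genes were well separated between the groups, with little spread within either. Dsc1 and Dsg1b, cadherins of the upper epidermis, had the largest changes of the group: Dsc1 averaged 14.04 ± 0.544 (SD, n = 2) in wild type and 4.06 ± 0.160 (SD, n = 3) in Noggin-deficient samples and Dsg1b 9.82 ± 0.0424 (SD, n = 2) in wild type and 2.93 ± 0.281 (SD, n = 3) in Noggin-deficient samples, log2 changes of -1.73 and -1.67. The other upper-layer desmogleins Dsg1a and Dsg1c changed by -1.31 and -1.16. Dsg3, the desmoglein of the lower layers, changed by -1.53 and Dsc3, its counterpart among the desmocollins, by -1.26. Dsg2 and Dsc2, which simple epithelia also make, changed by -0.31 and -0.97, the former without a call under median-of-ratios scaling, and Pkp3 by -0.75. Dsg1a, Dsg1b and Dsg1c are close copies between which reads can be split.

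The granular and cornified envelope proteins fell the most. Of 20 tested, 19 fell, 17 of them over 2-fold, with a median change (log2) of -1.85. Lor, of loricrin, the chief protein of the envelope, measured 47.6, 49.1 and 50.6 in the Noggin-deficient samples, against 383.0 and 349.4 in wild type (log2 change -2.89 with SE 0.045, limma adjusted p = 8.4e-09). Hrnr, of hornerin, a large relative of filaggrin, had 1.19, 1.17 and 1.28 against 22.2 and 22.7 (log2 change -3.95 with SE 0.054, limma adjusted p = 7.2e-09). Ivl, of involucrin, an early scaffold of the envelope, had 0.53, 0.48 and 0.54 against 5.16 and 5.26. The wild type means of these 3 genes were 7.46, 18.5 and 10.1 times those of the Noggin-deficient samples, and no library of one group came near the other group. Flg, of filaggrin, was not analysed here, and its relative Flg2 was at or below 0.31 in every library.

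The late cornified envelope and small proline-rich families held several of the steepest falls. Of these genes Sprr3, Lce3d, Lce3e and Lce6a, which are among the 17 that fell over 2-fold, reached the minimum value only in wild type libraries and so had to differ. Lce3f, a late cornified envelope gene, measured 1.15, 0.93 and 0.85 in the Noggin-deficient samples, against 10.88 and 10.51 in wild type, and Lce3d, Lce3e and Lce6a had log2 changes of -2.18, -2.51 and -2.01. Lce3d, Lce3e and Lce6a were below 0.2 in every Noggin-deficient library, so that their changes depend on the pseudocount. Among the small proline-rich genes, which encode cross-bridging proteins of the envelope, Sprr3 averaged 4.32 ± 0.0283 (SD, n = 2) in wild type and 0.317 ± 0.0643 (SD, n = 3) in Noggin-deficient samples (log2 change -3.02). Sprr1a and Sprr1b changed by -1.30 and -1.62. The members of both families are similar in sequence, and the sources used here do not say how their reads were assigned.

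The plaque proteins and cross-linking enzymes of the envelope fell as well. Evpl and Ppl, of envoplakin and periplakin, on which the envelope is first laid down, changed by -1.13 and -1.51. Tgm1, the membrane-bound transglutaminase that cross-links the envelope, stood at 7.38, 7.69 and 7.87 in the Noggin-deficient samples, against 19.4 and 19.7 in wild type (log2 change -1.33). Tgm3, another transglutaminase, changed by -0.57. Asprv1 and Casp14, proteases of the granular layer that act on filaggrin, had log2 changes of -1.69 and -1.60. Asprv1 was well expressed, with 41.2, 41.5 and 40.8 against 133.6 and 132.7. Psca, of a surface protein of the Ly6 family that is not specific to skin, had 1.36, 0.83 and 0.85 against 10.6 and 11.7, and its relative Lypd5 changed by -2.59. Krt80 changed by -0.82. Tchh, of trichohyalin, a protein of hair and hard epithelia, had 1.39, 1.59 and 1.19 against 1.87 and 1.49, with overlapping groups (log2 change -0.24, SE 0.129, limma adjusted p = 0.11). Krt2 and Cdsn were too low to test. Krt2 was between 0.1 and 0.17 in the Noggin-deficient samples and at 0.01 and 0.03 in the wild type samples, and Cdsn between 0.17 and 0.23 against 0.38 in both.

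**Figure D2:**
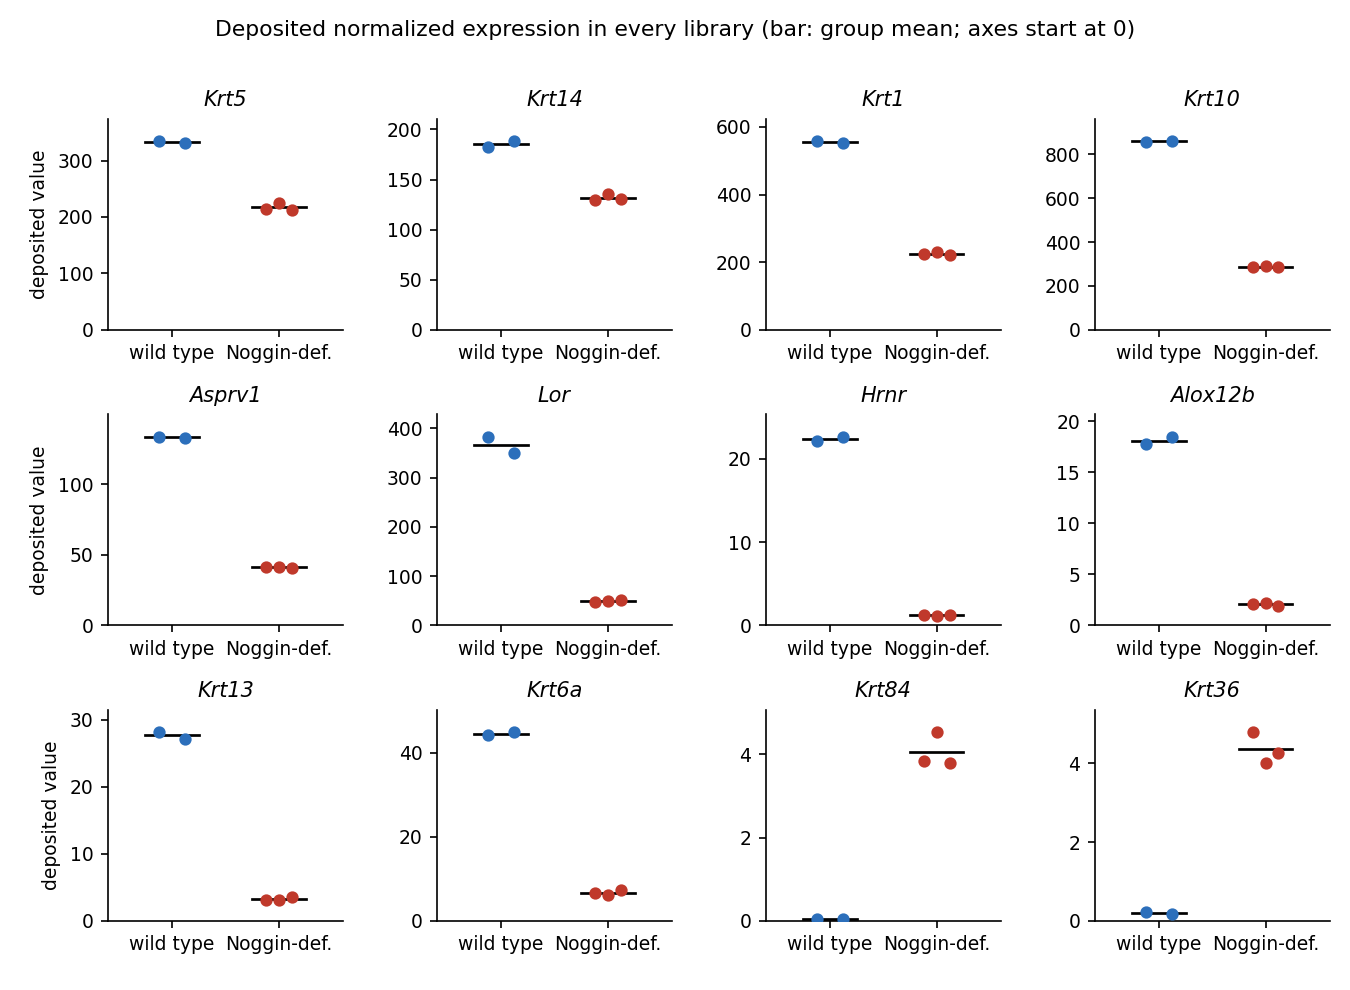
Deposited normalized value of 12 genes in every library, with wild type samples in blue (n = 2), Noggin-deficient samples in red (n = 3), a black bar at each group mean and every axis starting at 0. Krt5 and Krt14 sit closest between the groups, Lor (383.0 and 349.4 against 47.6 to 50.6) and Hrnr lie far apart, and Krt84 and Krt36 are the panels in which the Noggin-deficient samples are higher.

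The promoter windows of the genes that carry this pattern are shown to set a basal gene (Krt5), a spinous gene (Krt10), 3 envelope genes with steep falls (Lor, Hrnr and Ivl) and the hair keratin gene with the largest rise (Krt84) side by side. Each is the 250 bases before the RefSeq transcription start, 5′ to 3′ on the gene's strand, from build GRCm38.p6, which is not the mm9 build the submitters' processing notes name. Capitals mark matches on either strand to the TATA box, searched as the letters TATAAA, and to the motif of the AP-1 factors, searched as TGANTCA. The matches do not overlap each other in these windows.
Krt5, chr15:101712906-101713155, minus strand: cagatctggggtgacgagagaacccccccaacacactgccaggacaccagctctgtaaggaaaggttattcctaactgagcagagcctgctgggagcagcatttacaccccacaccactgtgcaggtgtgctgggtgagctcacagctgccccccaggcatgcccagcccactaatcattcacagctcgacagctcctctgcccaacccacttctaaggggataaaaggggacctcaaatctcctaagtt
Krt10, chr11:99389365-99389614, minus strand: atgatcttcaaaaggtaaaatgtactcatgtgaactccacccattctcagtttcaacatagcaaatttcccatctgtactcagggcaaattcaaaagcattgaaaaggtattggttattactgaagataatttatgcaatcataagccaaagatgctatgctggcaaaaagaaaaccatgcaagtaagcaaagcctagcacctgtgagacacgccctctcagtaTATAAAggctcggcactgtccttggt
Lor, chr3:92083143-92083392, minus strand: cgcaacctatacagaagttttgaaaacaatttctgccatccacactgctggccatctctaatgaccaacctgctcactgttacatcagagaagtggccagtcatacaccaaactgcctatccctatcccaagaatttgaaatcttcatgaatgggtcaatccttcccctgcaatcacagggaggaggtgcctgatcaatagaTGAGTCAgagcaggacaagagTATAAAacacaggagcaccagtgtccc
Hrnr, chr3:93319499-93319748, plus strand: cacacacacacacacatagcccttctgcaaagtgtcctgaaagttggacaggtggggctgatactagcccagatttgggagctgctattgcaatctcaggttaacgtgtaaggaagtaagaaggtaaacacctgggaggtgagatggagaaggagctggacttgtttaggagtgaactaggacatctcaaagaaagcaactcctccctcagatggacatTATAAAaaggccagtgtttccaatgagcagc
Ivl, chr3:92573736-92573985, minus strand: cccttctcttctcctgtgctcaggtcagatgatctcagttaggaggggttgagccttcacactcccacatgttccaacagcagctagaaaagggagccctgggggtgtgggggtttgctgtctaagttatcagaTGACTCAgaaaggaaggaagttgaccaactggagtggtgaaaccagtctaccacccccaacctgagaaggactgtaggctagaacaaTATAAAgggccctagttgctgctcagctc
Krt84, chr15:101532821-101533070, minus strand: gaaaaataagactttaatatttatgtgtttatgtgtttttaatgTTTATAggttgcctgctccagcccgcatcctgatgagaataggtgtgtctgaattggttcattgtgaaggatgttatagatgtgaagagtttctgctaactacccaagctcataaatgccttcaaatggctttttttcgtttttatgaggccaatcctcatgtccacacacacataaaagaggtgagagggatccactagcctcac
Krt10, Lor, Hrnr and Ivl each held TATAAA within 31 bases of the start. Lor held the AP-1 letters from 48 to 42 bases and Ivl from 116 to 110 bases before it. The Krt5 window held neither set of letters, and the match of Krt84 lay from 206 to 201 bases before the start. Of the 77 members with a promoter in the table, 29.9% held the TATA letters and 18.2% the AP-1 letters in these 250 bases, against 13% and 6.87% of the 27025 genes of the table and 9.36% and 5.89% of the 3257 listed genes found in it. Among the granular and cornified envelope genes 9 of 19 held the TATA letters and 5 of 19 the AP-1 letters. Spinous genes held each of them in 4 of 8 windows and lipid barrier genes in 0 of 6. The hair and nail keratins held the TATA letters in 3 of 4 and the AP-1 letters in 0 of 4. Neither motif was thus particular to the envelope genes. A match is a string of letters and not a measured site. The letters AACNGGTT, a motif of the Grainyhead-like factors, were in 1 of the 77 windows, against 1.71% of the table.

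Lipids sealed around the envelope make the skin watertight. The 7 listed genes of this lipid barrier fell, 5 of them over 2-fold, with a median change (log2) of -1.30. Of the 7, Alox12e reached the minimum value only in wild type libraries and so had to differ. Alox12b, of the lipoxygenase that oxidises the ceramides to be bound to the envelope, measured 2.09, 2.19 and 1.87 in the Noggin-deficient samples, against 17.8 and 18.5 in wild type (log2 change -3.0 with SE 0.067, limma adjusted p = 5e-08). Aloxe3, of the enzyme that takes the product of Alox12b further, had 0.76, 0.67 and 0.77 against 3.90 and 3.31 (log2 change -1.97). Both steps of this pathway were thus lower in every Noggin-deficient library. Abca12, the lipid transporter of lamellar granules, changed by -1.58, and Cers3, the synthase of ultra-long ceramides, by -1.22. Elovl4, which makes the ultra-long acyl chains, averaged 31.8 ± 0.332 (SD, n = 2) in wild type and 12.7 ± 0.248 (SD, n = 3) in Noggin-deficient samples. Elovl1, an elongase that many tissues make, averaged 58.4 ± 0.311 (SD, n = 2) in wild type and 37.8 ± 1.06 (SD, n = 3) in Noggin-deficient samples. Its log2 change of -0.63 did not pass against a 1.5-fold change (limma adjusted p = 0.51).

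The proteases that shed the outermost cells and their inhibitors went mostly the same way. Of 13 tested, 12 fell, 8 of them over 2-fold, and 1, Stfa2l1, rose, with a median change (log2) of -1.36. Stfa3, of a stefin that inhibits cysteine proteases, measured 7.59, 6.93 and 6.98 in the Noggin-deficient samples, against 54.7 and 55.8 in wild type (log2 change -2.90). Stfa1, of the same family, had 8.48, 7.34 and 7.68 against 24.6 and 25.4, while Stfa2l1 had 1.3, 0.92 and 1.66 against 0.46 and 0.70. The stefin genes are near copies of each other, which makes their separate values uncertain. Spink5, of the inhibitor that restrains the epidermal kallikreins, had 0.62, 0.69 and 0.70 against 3.57 and 3.81 (log2 change -2.10). The kallikreins themselves changed less: Klk10 by -1.09, Klk11 by -0.85, Klk5 by -0.68 and Klk13 by -0.60, the last without a call under median-of-ratios scaling. Klk7 was too low to test, at 0.16 to 0.31 in the Noggin-deficient and 0.04 and 0.09 in the wild type samples. Of the clade B serpins on this list, Serpinb3b changed by -2.01, Serpinb11 by -1.73, Serpinb12 by -1.59, Serpinb3a by -1.36 and Serpinb3c by -0.63.

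Keratins of the periderm, of simple epithelia and of wet surfaces also fell, but by unlike amounts within some partner pairs. All 13 tested fell, 10 of them over 2-fold, with a median change (log2) of -1.29. Krt78 and Krt79, both among the 10, reached the minimum value only in wild type libraries and so had to differ. Krt4, a type II keratin of wet stratified epithelia, stood at 78.2, 79.9 and 76.6 in the Noggin-deficient samples, against 138.2 and 140.3 in wild type (log2 change -0.83). Its type I partner Krt13 had 3.04, 3.10 and 3.54 against 28.2 and 27.2 (log2 change -3.01 with SE 0.065, limma adjusted p = 4.4e-08). The level of Krt13 thus fell further than that of the keratin it pairs with. Krt6a and Krt6b, type II keratins of periderm, wounded skin and hair sheaths, changed by -2.69 and -2.77, whereas Krt16 and Krt17, type I keratins known to pair with them, changed by -0.50 and -0.69, Krt16 without a call under median-of-ratios scaling. Krt6a and Krt6b are near copies, so that reads can be split between them. Krt78, a further type II keratin, had 0.22, 0.05 and 0.22 against 2.74 and 2.75.

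The partner ratios within a library, which do not depend on how the libraries were scaled, are on a log2 scale. The ratio of Krt4 to Krt13 was 4.69, 4.69 and 4.44 in the Noggin-deficient libraries and 2.30 and 2.37 in the wild type libraries, a difference of 2.27. The ratio of Krt6a to Krt17 was -1.32, -1.38 and -1.13 against 0.74 and 0.80, a difference of -2.04, and that of Krt6a to Krt16 differed by -2.17. The pairs of the main layers moved far less: the ratio of Krt5 to Krt14 differed by -0.12 and that of Krt1 to Krt10 by 0.28. The ratio of Krt8 to Krt18, of simple epithelia and Merkel cells, differed by -0.43 and that of Krt7 to Krt19 by -0.38. The pairs were chosen after the values had been seen. For each of the 8 ratios the exact two-sided permutation test over samples gave p = 0.2 (0.2 adjusted over the 8), which is the smallest that 3 samples against 2 allow, so this test could not pass.

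**Figure D3:**
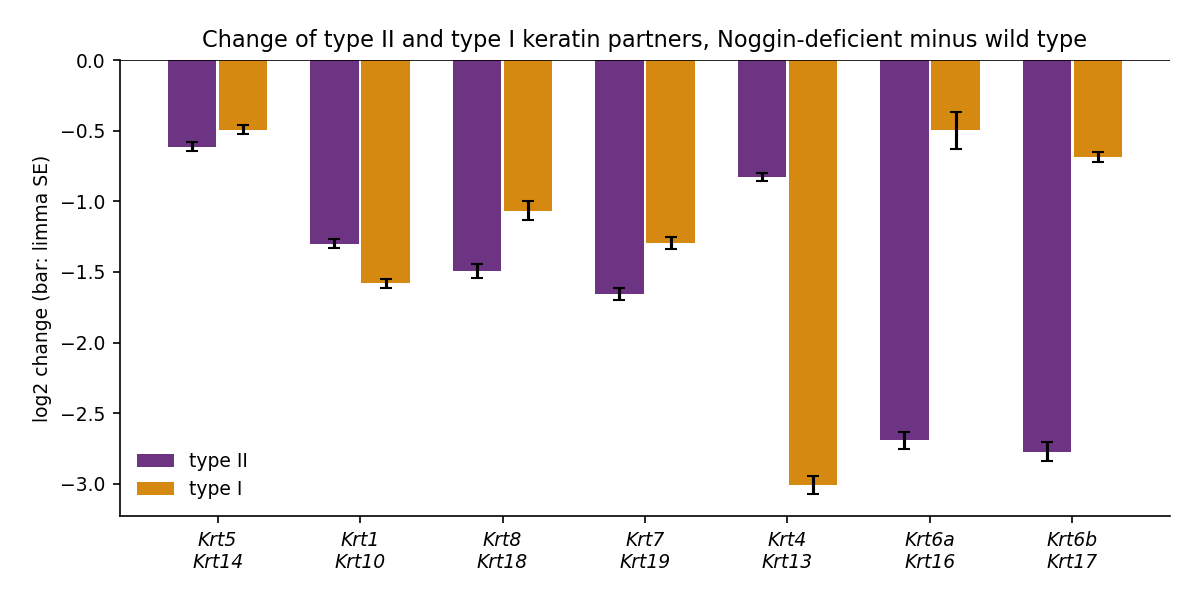
Log2 change (Noggin-deficient minus wild type) of type II (purple) and type I (orange) keratins set side by side as partners, with limma's standard error as error bars. The partners Krt5 and Krt14 are at -0.61 and -0.49, whereas Krt4 and Krt13 are at -0.83 and -3.01 and Krt6a and Krt16 at -2.69 and -0.50.

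The fall of each layer against the basal layer was taken within each library, as the log2 ratio of the summed values of a group to those of Krt5, Krt14, Krt15 and Trp63. For the granular and cornified envelope proteins it was -1.53, -1.54 and -1.49 in the Noggin-deficient libraries and 0.0745 and -0.00447 in the wild type libraries, a difference of -1.55. For the spinous group it was 0.89, 0.88 and 0.91 against 1.62 and 1.63, a difference of -0.73. The desmosome group differed by -0.68, the periderm, simple and wet-surface keratins by -0.69, the lipid barrier by -0.50 and the proteases and inhibitors by -1.25. In each of these 6 ratios both wild type libraries were above all Noggin-deficient ones. Among the 10 ratios of this kind, 9 had p = 0.2 (0.222 adjusted over the 10), the smallest the exact two-sided permutation test over samples allows here. Sums weigh the abundant genes most: the lipid barrier sum is largely Elovl1 and Elovl4. In the first wild type library Stfa3 and Stfa1 gave 54.7 and 24.6 of a protease and inhibitor sum of 132.5. In the first Noggin-deficient library they gave 7.59 and 8.48 of 39.1. Lor gave 383.0 of an envelope sum of 781.0 in that wild type library and 47.6 of 171 in that Noggin-deficient library. The ratios of the proteases and inhibitors and of the envelope proteins therefore lean on these genes.

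**Figure D4:**
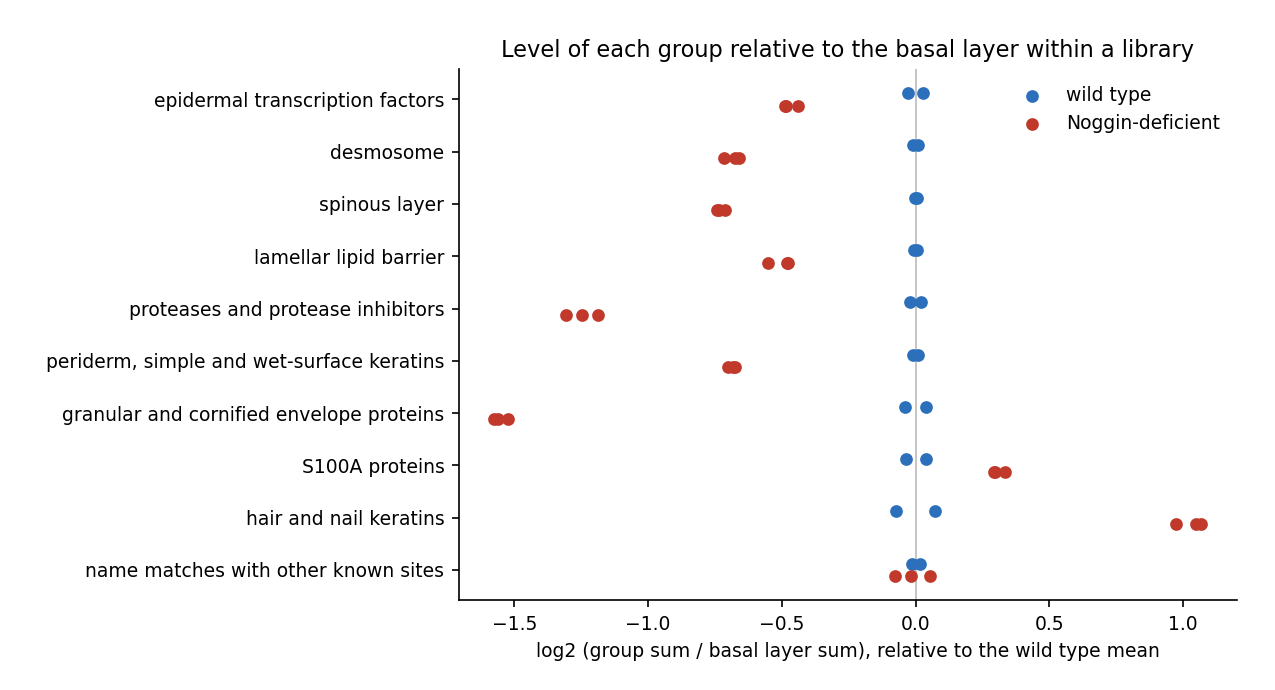
Log2 ratio of each group's summed value to that of the basal layer within each library, minus the mean of the wild type libraries, with wild type in blue (n = 2) and Noggin-deficient in red (n = 3). The granular and cornified envelope proteins lie about 1.55 below the wild type mean, the hair and nail keratins 1.03 above it, and the genes known from other sites overlap between the groups. The hair and nail sum in wild type is mostly Krtap13 (7.68 of 8.16 and 8.68 of 9.11). Its 1.03 thus mixes the fall of Krtap13 with the rise of the tested hair keratins.

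Most hair keratins ran against the rest. These are the hard, sulfur-rich keratins of hair and nail, and 8 of these genes and their associated proteins were listed, of which 5 were tested. Of the 5, 4 rose over 2-fold and 1 fell, and each of the 4 reached the minimum value only in Noggin-deficient libraries, so that they had to differ. Krt84, a type II hair keratin, measured 3.84, 4.53 and 3.80 in the Noggin-deficient samples, against 0.04 and 0.03 in wild type (log2 change 3.91 with SE 0.0995 on the log2(value + 0.25) scale, limma adjusted p = 8.4e-08). Krt36, a type I hair keratin, had 4.79, 4.02 and 4.26 against 0.23 and 0.17 (log2 change 3.36). Krt35, another of type I, had 2.06, 1.93 and 2.19 against 0.11 and 0.09, and Krt85, of type II, had 0.61, 0.74 and 0.93 against 0 and 0.03. These 4 hair keratins were low in level but higher in every Noggin-deficient library than in either wild type library. Krt81 and Krt86 were too low to test, Krt81 at 0.05 to 0.1 against 0 and 0.03 and Krt86 at 0.11 to 0.15 with both wild type libraries listed at 0. Krt32, also too low to test, went the other way, at 0.03, 0 and 0.02 against 0.1 and 0.08. Krtap13, of a hair keratin-associated protein, went the other way, from 7.68 and 8.68 in the wild type samples to 0.42, 0.08 and 0.05 (log2 change -4.38 with SE 0.314, limma adjusted p = 1e-05). It had the largest fall of the tested members, and the first Noggin-deficient library was well above the others. Krtap13 reached the minimum value only in wild type libraries, so that it too had to differ.

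Of 10 genes listed as markers of the hair placode and sheath, 5 had values. Hoxc13, a homeobox factor of hair and nail known to act on hair keratin genes, measured 1.17, 1.06 and 0.86 in the Noggin-deficient samples, against 0.32 and 0.36 in wild type. It reached the minimum value only in Noggin-deficient libraries and so had to differ. Msx2, a BMP-responsive homeobox gene also made in the distal limb, had 2.43, 2.53 and 2.22 against 0.93 and 0.77. Gata3, a factor of the hair sheath and epidermis, had 8.56, 8.44 and 8.14 against 13.1 and 12.5, and Edar, a placode receptor, changed by -0.41, without a call under median-of-ratios scaling. Shh was at or below 0.25 in every library. The summed level of these 5 genes ranged from 12.1 to 13.2 in the Noggin-deficient and from 15.1 to 15.9 in the wild type samples. Gata3 made up most of that sum. Of the 4 tested, 2 rose over 2-fold and 2 fell, with a median log2 change of 0.35. Of all tested genes 37.9% rose, 3.73% over 2-fold, and 60.1% fell. The part of these 5 genes in the hair keratin values was not tested.

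Of the 6 S100A genes, which encode small calcium-binding proteins, 2 fell and 4 rose, where 60.1% of all tested genes fell and 37.9% rose. S100a14, made in epithelia, stood at 37.8, 35.9 and 36.6 in the Noggin-deficient samples, against 57.7 and 60.9 in wild type (log2 change -0.69), and S100a7a, of the psoriasin family, changed by -0.99. S100a8 and S100a9, which neutrophils store in bulk and stressed keratinocytes also make, had log2 changes of 0.76 and 0.79. S100a8 had 6.01, 6.92 and 6.33 against 4.53 and 2.99. Of 14 neutrophil and myeloid markers, S100a8 and S100a9 among them, 9 had values and 8 were tested. All 8 rose, where 37.9% of all tested genes rose and 98.0% were called in either direction. Of the 8, 4 were above the minimum only in Noggin-deficient libraries and so had to differ. Among these 4, Mpo, of myeloperoxidase, rose by 1.83 and Camp, of an antimicrobial peptide, by 1.42. The summed level of the 9 ranged from 21.1 to 22.8 in the Noggin-deficient samples and was 11.1 in both wild type samples, Elane being listed at 0 in 1 of the latter, and their part in the S100a8 and S100a9 values was not tested. S100a1, made in heart and skeletal muscle, had 9.37, 9.79 and 8.0 against 5.03 and 6.50, and S100a3, known from hair cuticle and above the minimum value only in Noggin-deficient libraries, had 0.85, 0.87 and 0.76 against 0.30 and 0.32.

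The Grainyhead-like factors, which switch on barrier genes and epithelial junctions, fell. Grhl3, the factor needed for the barrier, measured 7.34, 7.77 and 8.24 in the Noggin-deficient samples, against 16.7 and 16.1 in wild type (log2 change -1.05 with SE 0.052, limma adjusted p = 1.6e-06). Grhl1, which acts on desmosomal genes, had 6.59, 7.02 and 6.02 against 15.3 and 14.8, and Grhl2, made in many epithelia, changed by -0.46.

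The rule also took 14 genes known chiefly from tissues other than the epidermis, 8 of them tested. Of these 6 fell and 2 rose, with a median change (log2) of -0.63. The 2 that rose, Lypd2 and Elovl2, reached the minimum value only in Noggin-deficient libraries and so had to differ. Among those that fell, Serpinb6c reached it only in wild type libraries and had to differ as well. Serpinb1a, an inhibitor of neutrophil proteases, measured 10.8, 10.9 and 11.2 in the Noggin-deficient samples, against 17.2 and 17.5 in wild type, and Serpinb10 changed by -0.60. Elovl7 had 0.97, 0.91 and 0.99 against 2.83 and 2.52, the largest fall among them, and Lypd2 had 0.85, 0.92 and 1.31 against 0.44 and 0.23. Serpinb8, Serpinb6c and Alox12 changed by -0.90, -0.77 and -0.33 and Elovl2 by 0.45, Alox12 without a call under median-of-ratios scaling. The other 6 (Klkb1, Serpinb9b, Spink1, Spink8, Spink10 and Lypd1) were below 0.5 in every library.

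Neighbouring genes shared a direction in some clusters and not in others. In the order of the RefSeq annotation, 18 members lie together in the epidermal differentiation complex, where the S100A, loricrin, small proline-rich, late envelope and fused-type S100 genes such as Hrnr are strung along one chromosome. Of 17 tested, 13 were lower and 4, S100a1, S100a3, S100a8 and S100a9, were higher, all at the S100A end beside S100a14 and S100a7a, which were lower. Tchh, among the 13, was not called. Sprr3, Lce3d, Lce3e, Lce6a and S100a3 had reached the minimum value through libraries of 1 genotype only. In the type I keratin cluster Krt35 and Krt36, at 2.72 and 3.36, lie next to Krt13 at -3.01 in the order of members. In the type II cluster Krt84 at 3.91 is followed by Krt6b at -2.77. The 8 desmosomal cadherins of one cluster were all lower, as were the 10 clade B serpins of another, with medians of -1.29 and -1.66. Beside these clusters, 60.1% of all tested genes were called lower and 37.9% higher.

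Genes of the barrier that the naming rule did not take were also lower. They came from a list drawn up with earlier results of these data known, so they are no independent support. Of 82 on a list of further epidermal genes 62 had values, 60 were tested and all 60 fell, 27 of them over 2-fold, with a median change (log2) of -0.85, where 60.1% of all tested genes fell and 7.16% fell over 2-fold. Under median-of-ratios scaling 54 of the 60 were called lower and none higher. Gsdmc and Plet1, among the 60, reached the minimum value only in wild type libraries and so had to differ. Cnfn, of cornifelin, an envelope protein, stood at 13.4, 13.5 and 12.7 in the Noggin-deficient samples, against 78.3 and 75.8 in wild type. Orm1, which was on the list but is an acute-phase protein gene and not one of the barrier, had 1.06, 1.02 and 1.11 against 16.6 and 16.9. Genes that anchor basal cells to the basement membrane were among those with small changes: Itga6 -0.43, Col17a1 -0.45, Lama3 -0.55 and Dst -0.54. Cdh1, of the epithelial cadherin, changed by -0.85 and Klf4, a factor of the upper layers, by -0.73. Of 14 dermal fibroblast markers 9 had values, 8 lower and 1 higher, with a median of -0.38, and 5 were lower and 1 higher under median-of-ratios scaling. Dpt, of dermatopontin, changed by -0.73 and Fbn1, of fibrillin, by -0.48, and Crabp1 rose by 0.49. The summed level of the fibroblast markers ranged from 5985 to 6033 in the Noggin-deficient and from 7692 to 7801 in the wild type samples. Of 10 melanocyte and Merkel cell markers 5 had values, among them Krt8 and Krt18, which are also keratins of simple epithelia and periderm. Krt8 had 5.62, 5.25 and 5.27 against 16.3 and 14.9, and Krt18 had 5.2, 5.59 and 4.71 against 10.9 and 11.3, whereas Isl1, a homeobox factor of Merkel cells and other tissues, had 0.71, 0.66 and 0.77 against 0.54 and 0.41 (log2 change 0.41, limma adjusted p = 0.0098). Krt20 and Atoh1, which define Merkel cells, were too low to test, Krt20 at 0.16, 0.1 and 0.21 against 0.07 and 0.03 and Atoh1 at 0 to 0.03 against 0.05 and 0.13. The part of dermis, Merkel cells or dissection in the keratin values was not tested.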

How the data were processed

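RNA was sequenced from 5 samples, placed in groups by the genotype label. The deposited values are a normalized expression signal per gene, made by the authors in a unit not given in the sources used here. Per the submitters' processing notes, STAR 2.4.2a, DESeq2 and build mm9 were used, with no roles stated. The depth is unknown, so no counting interval is given. A Noggin-deficient library summed to between 92210 and 93695 over the listed genes, a wild type library to 100792 or 102783.

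Genes that reached 0.5 in 2 or more libraries were tested with limma 3.58.1 (R 4.3.3, limma-trend) on log2(value + 0.25), adjusted over all genes tested; the step was tested on simulated data. Fold changes on this scale understate those of low genes. Ratios were tested with SciPy 1.17.1. The members and lists were chosen with earlier results of these data known. Genes picked by rule were 12 fixed ones and, per group, the 2 highest in mean and the 2 with the largest change. From each further list the 2 with the smallest p were added. Many of these are given with every sample's value, and others only with a mean and SD, a change or a ratio. All other genes were chosen after their values were seen. Promoters were matched by symbol to a RefSeq table (GRCm38.p6). Alternatives covered the pseudocount, the minimum, the scaling, transcript length (known for 113 members), a 1.5-fold threshold, each library left out and a replicate block.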

Additional observations from a re-analysis of the deposited data

How the results depend on the processing

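The counts of members that fell stayed within 1.5 times under every alternative, and the basal layer kept the smallest and the granular and cornified envelope group the largest median fall among the 7 falling layer groups. With a pseudocount of 0.1 the median log2 change was -1.30 for all members, -1.33 for desmosome genes, -2.17 for envelope proteins, -1.52 for periderm, simple and wet-surface keratins and 3.43 for hair and nail keratins. With a pseudocount of 1, 3 members rose over 2-fold, and the medians were -0.997 for all members, -1.36 for spinous, -1.17 for desmosome, -1.45 for envelope, -1.24 for lipid, -1.18 for protease and 1.48 for hair and nail genes. With no minimum value 18 members rose and the medians were -1.08, -1.47 for spinous, -1.62 for envelope, -1.23 for protease and 1.25 for hair and nail genes. With a stricter minimum (at least 1 in at least 3 libraries), which tests fewer genes, 6 members rose, 3 of them over 2-fold, and the medians were -1.23 for all members, -1.29 for desmosome, -1.60 for envelope and 3.36 for hair and nail genes.

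Median-of-ratios scaling moved the median of all tested genes from -0.28 to -0.03, and the split of all tested genes from 60.1% lower and 37.9% higher to 32.5% and 38.0%. Then 83 members fell and 11 rose, 9 of them over 2-fold. The medians were -0.99 for all members, -0.36 for basal, -1.27 for spinous, -0.99 for desmosome, -1.63 for envelope, -1.04 for lipid and -1.10 for protease genes, -1.08 for periderm, simple and wet-surface keratins and 2.86 for hair and nail genes. Under upper-quartile scaling 8 members rose over 2-fold, and the same medians were -1.04, -0.41, -1.32, -1.04, -1.67, -1.08, -1.15, -1.12 and 2.84. With the trend on transcript length removed, 3 members rose over 2-fold and the medians were -1.10 for all members, -0.48 for basal, -0.96 for desmosome, -1.18 for lipid and 3.06 for hair and nail genes. Against a 1.5-fold change 5 members rose, and 11 of the 44 members named by rule no longer passed, among them Krt5, Krt14, Krt15 and Trp63. Under the other alternatives each of these 44 that could be tested kept its direction and its call.

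With each library left out in turn the median of all members ran from -1.26 to -1.21, that of desmosome genes from -1.28 to -1.25 and that of periderm, simple and wet-surface keratins from -1.42 to -1.26. Nothing in the labels ties a replicate number to a litter or day. Deviations of same-numbered libraries correlated at -0.13 and -0.06. With 2 wild type libraries these values mirror those against the other wild type library, so they cannot decide whether the numbers pair the samples. With the replicate block over the 2 shared numbers, the median of all members was -1.21 and 87 fell and 11 rose. Against desmosome genes in place of basal genes, the within-library differences of the lipid barrier and of the Grainyhead-like factors turned to 0.18 and 0.21, and that of the genes known from other sites to 0.67. Against the basal layer the latter differed by -0.01, turned to 0.38 with geometric means and lay between -0.0472 and 0.0183 with a library left out. The spinous group and the periderm, simple and wet-surface keratins differed from the basal layer by -0.73 and -0.69, close to the desmosome group at -0.68. Against desmosome genes these groups therefore hardly differed between the genotypes. The cause of these shifts was not tested. The unknown depth limits what can be said of genes near 0.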
